A study of Cicer arietinum with 5 samples.

Results

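A set of 2300 short genomic windows was examined in which asymmetric DNA methylation was much higher at mid-maturation than at late-embryogenesis in developing chickpea seeds. Whole genome bisulphite sequencing had been performed on genomic DNA from seeds of Himchana 1, a small-seeded cultivar grown in the field, in 2 replicates of late-embryogenesis (stage S3) and 3 of mid-maturation (stage S5). The stages shared genotype and tissue, no treatment was given, and each biological replicate was a pool of seeds. Bisulphite turns unmethylated cytosine into uracil, which is read as T, so the methylation level of a cytosine is the percent of its reads that show C. As whole seeds were used, a change within cells and a change in the makeup of seed tissues cannot be told apart.

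A cytosine was taken as asymmetric when no listed cytosine lay 1 or 2 bases downstream of it on the opposite strand in any library. Levels were computed in separate 100 bp windows counted from base 1 of each sequence. A window was eligible with 3 or more asymmetric cytosines listed in all 5 libraries and 30 or more reads on them in every library, and its level was the mean over these cytosines weighted by reads. Of 1531201 windows with at least 1 such cytosine, 670696 were eligible. A window was chosen when the mean S5 level exceeded the mean S3 level by 25 percentage points or more and every S5 library lay above every S3 library. The 2300 chosen windows, 0.343% of those eligible, held 12413 used cytosines and lay on 267 sequences of the kabuli genome (version 1). The mirrored rule, a fall of the same size without overlap, was met by 236 windows (0.0352%). As the asymmetric levels chose the windows, these levels are described below without a test. Context was not read from sequence, so the class holds CHH cytosines (H is A, C or T) and also any symmetric cytosine with a partner absent from every list.

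In plants, CG and CHG sites are symmetric, and their methylation can be copied from the old strand after replication. CG methylation is maintained by MET1 and CHG methylation by CMT3, as known from Arabidopsis. CHH sites have no symmetric partner and are methylated anew, by the RNA-directed pathway, in which small interfering RNAs guide the methyltransferase DRM2, or by CMT2 in heterochromatin. A gain of CHH methylation during seed maturation is known from Arabidopsis and soybean, and short CHH-methylated stretches beside genes are known from maize.

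The mean level of the chosen windows was 38.3% and 37.2% in S3 replicates 1 and 2. It was 66.5%, 63.6% and 69.0% in S5 replicates 1, 2 and 3. The stage means were 37.8% ± 0.815 (SD, n = 2) and 66.4% ± 2.67 (SD, n = 3), a difference of 28.6 percentage points. The average eligible window had a level of 45.1% ± 0.591 at S3 (SD, n = 2). It gained 4.66 points to reach 49.8% ± 1.42 at S5 (SD, n = 3). The position of the chosen windows below the average at S3 and above it at S5 was read from the values that chose them. A general rise was widespread, since every S5 library exceeded every S3 library in 32.9% of eligible windows.

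**Figure D1:**
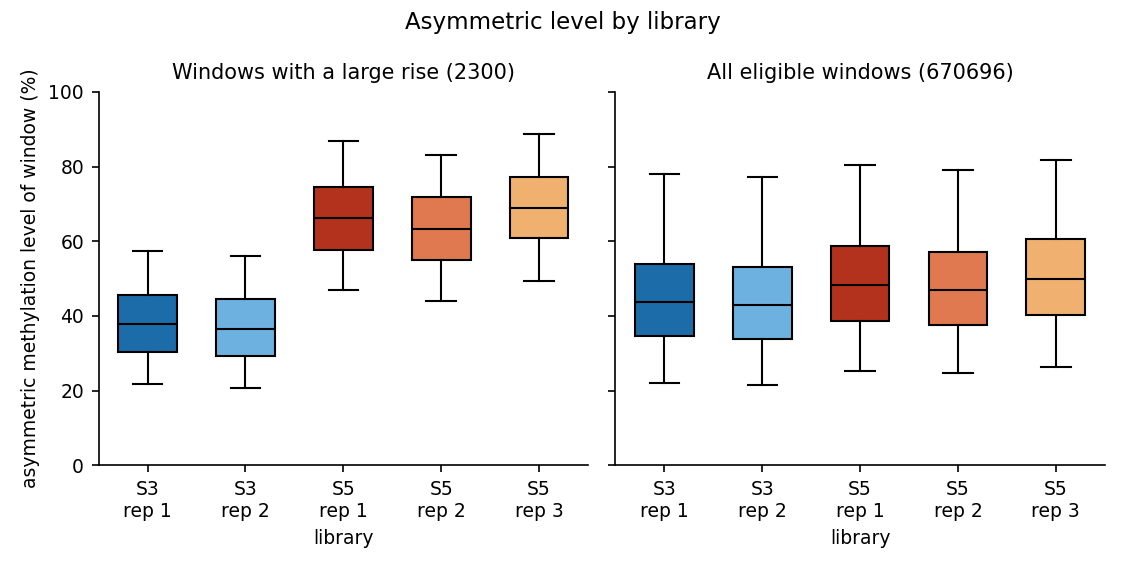
Asymmetric methylation level per 100 bp window (y axis, %) in each library (x axis), for the chosen windows and for all eligible windows; boxes give the middle of the distribution from the 25th to the 75th percentile, lines the median and whiskers the 5th and 95th percentiles. Median levels of the chosen windows were 37.8% and 36.6% at S3 and 66.3%, 63.4% and 68.9% at S5, a separation fixed by the choice.

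Most differences lay close to the limit. The median difference was 27.7 points, and 601 windows reached 30 points, 129 reached 35 points, 24 reached 40 points and 2 reached 50 points. The distance between the lowest S5 and the highest S3 library was 0.127 to 43.1 points, with a median of 17.6 points. At S3, 1327 windows had a mean level of 20 to 40%, 901 of 40 to 60%, 49 under 20% and 23 at 60% or more. At S5, 2201 windows had a mean level of 50% or more, of which 218 were at 80% or more. The chosen windows thus lay mostly at a partial level at S3 and at a higher partial level at S5. At S5, 9 of them reached 90%, a level typical of CG sites in these seeds. Used cytosines had to be called methylated in every library, so a start from unmethylated cytosines could not appear.

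Near the limit, the chosen and the other windows could hardly be distinguished. The 3 chosen windows with the smallest differences were on Ca7, Ca8 and Ca2, with 25.0004, 25.0018 and 25.0023 points. The 3 windows just under the limit with the same library order were on Ca6, Ca4 and scaffold496, with 24.9988, 24.9987 and 24.9958 points. All 6 had all their used cytosines on the reverse strand, 3 cytosines in 5 windows and 4 in the window on Ca7. A further 32 windows reached 25 points but had overlapping libraries and were left out.

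The number of chosen windows depended on which libraries were used. Without S3 replicate 1, 6546 of 779119 windows met the rule, of which 1532 were among the 2300. Without S3 replicate 2, 4672 of 749048 windows met it, with 1408 of the 2300 among them. Without S5 replicate 2, the shallowest library, 4881 of 876240 windows met it, with 1860 among them. These were 0.84%, 0.624% and 0.557% of the windows tested, of which there were more because cytosines had to be listed in 4 libraries rather than 5. The depth per window mattered as well. With 60 or more reads in every library, 784 of 353724 windows (0.222%) met the rule.

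A choice by the largest differences also selects windows in which chance errors pointed upward, so the rise was measured in libraries that took no part in a choice. With S3 replicate 1 and S5 replicate 1 alone, 9983 eligible windows differed by 25 points or more, with a median of 28.3 points. In the other libraries (S3 replicate 2 against S5 replicates 2 and 3), the median difference of the same windows was 9.94 points, against 4.95 points for all eligible windows. The difference was above 0 in 83.0% of the windows and reached 25 points in 9.02%, against 76.4% and 1.07% of all eligible windows. With the replicate 2 libraries making the choice, 10497 windows were selected, and the median in the remaining libraries was 8.78 points, against 4.69 points for all eligible windows, with 6.84% at 25 points or more. At S3, the library not used for the choice had a median level of 45.9% in the windows chosen with the replicate 1 libraries, against 42.9% in all eligible windows. With the replicate 2 libraries making the choice, it was 44.9% against 43.6%. In the unused library, the windows of either choice were therefore not lower at S3 than eligible windows. For the 2300 windows no library was unused. In the windows of both choices, a rise larger than the general one was measured again in libraries not used for the choice.

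**Figure D2:**
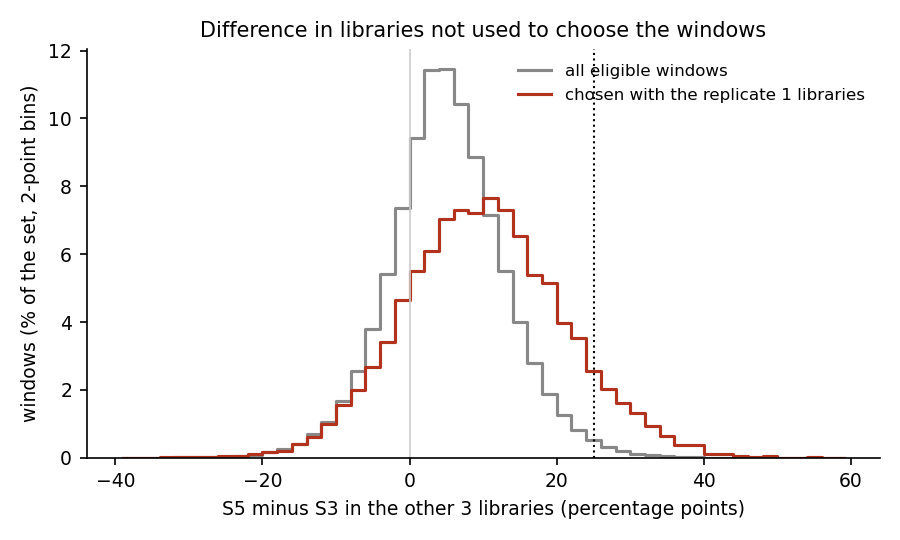
Difference of asymmetric level, S5 replicates 2 and 3 minus S3 replicate 2 (x axis, percentage points), as the percent of windows in bins of 2 points (y axis), for all eligible windows and for the 9983 windows chosen with the replicate 1 libraries only. The chosen windows are shifted to the right, with a median of 9.94 against 4.95 points, but only 9.02% reach the dotted line at 25 points.

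The single cytosines of the chosen windows are the ones whose mean chose the window, so their values follow the choice and are given as a description. Of the 12413 used cytosines, 12307 (99.1%) had a higher mean level at S5, and 64.2% were higher by 25 points or more. Over the used cytosines of all eligible windows these shares were 69.3% and 3.18%. The median difference of a single cytosine was 28.4 points, and the 5th and 95th percentiles were 10.3 and 43.7 points. In 2204 windows (95.8%) every used cytosine was higher at S5, against 24.2% of all eligible windows. Cytosines of a window share reads and are not independent.

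Among windows with 5 or more used cytosines and 100 or more reads in every library, the largest difference on any chromosome was found on Ca7 at 14621101 to 14621200. This window used 9 forward cytosines and had 153 to 343 reads per library. Its level was 34.6% in S3 replicate 1 and 27.1% in S3 replicate 2, as compared to 71.5%, 69.3% and 81.2% in S5 replicates 1, 2 and 3. All 9 cytosines rose, from 22.6 points at base 24 of the window to 51.3 points at base 75. The mean level at base 65 was 20.1% at S3 and 70.3% at S5. A single CG cytosine was listed in all libraries in this window, with 100% and 86.7% at S3 and with 92.3%, 92.3% and 80% at S5. The CG levels of the stages overlapped, whereas the asymmetric levels did not.

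On Ca5 at 33073501 to 33073600, the 6 used forward cytosines were methylated to 24.0% and 35.6% at S3 and to 71.2%, 63.0% and 72.9% at S5. No CG or CHG cytosine was listed in all libraries in that window. The window on Ca4 at 11902701 to 11902800 had levels of 22.7% and 24.6% at S3 and of 56.3%, 60.9% and 66.1% at S5 over 7 cytosines. Its 4 CG cytosines were higher at S5 too, with 70.2% and 74.4% against 76.8%, 83.9% and 81.0%. The window on Ca2 at 27946201 to 27946300 had levels of 33.9% and 25.5% at S3 and of 60.4%, 67.1% and 67.4% at S5 over 9 cytosines of the forward strand. Its 3 CG cytosines were at 94.8% and 95.8% at S3 and at 97.6%, 100% and 97.7% at S5. In these windows the S5 libraries lay close together relative to the rise.

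This was not so on Ca6 at 33862501 to 33862600, where 7 cytosines of the reverse strand had a level of 17.7% and 20.8% at S3 and of 67.3%, 39.2% and 62.2% at S5. S5 replicate 2 stood apart there, and the S5 mean of 56.2% had an SD of 15.0 (n = 3). On Ca3 at 23016301 to 23016400, the asymmetric level was 18.8% and 20.6% at S3 and 48.5%, 54.3% and 58.7% at S5 over 5 cytosines. The CHG cytosines of this window, 3 in number, were low and also higher at S5, at 29.0% and 20.9% against 43.6% or more in each S5 library. On Ca1 at 43533801 to 43533900, the 11 asymmetric cytosines were at 39.0% and 44.0% at S3 and at 72.4%, 72.3% and 77.5% at S5. The 2 CHG cytosines of that window were at 43.3% and 37.5% at S3 and at 74.2%, 79.3% and 76.0% at S5. In both windows asymmetric and CHG levels were thus higher at S5 without overlap. CG was higher without overlap on Ca3, with 78.9% and 74.8% at S3 and 84.5%, 87.8% and 87.1% at S5. On Ca1 the CG levels overlapped, with 42.3% and 72.3% at S3 and 76.7%, 71.8% and 89.7% at S5.

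On Ca8 at 16102701 to 16102800, the levels were 16.8% and 20.5% at S3 and 45.5%, 51.8% and 52.4% at S5 over 7 cytosines of the forward strand, on 210 to 388 reads. Its 2 CG cytosines were lower at S5, with 91.0% and 93.1% against 81.9%, 90.8% and 90.7%. The largest difference on an unplaced scaffold under the same conditions was found on scaffold395 at 286001 to 286100. Its 8 cytosines were at 31.2% and 33.3% at S3 and at 72.2%, 62.8% and 74.9% at S5. Here the strands differed, with a rise of 13.8 points over 3 forward cytosines and of 43.1 points over 5 reverse cytosines. Its CG cytosines were also higher at S5 without overlap, with 83.9% and 88.1% against 96.5%, 89.7% and 92.9%. So were its CHG cytosines, with 73.2% and 66.3% against 86.0%, 80.6% and 82.5%.

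Among windows with 3 or more used cytosines on each strand, the strand with the smaller rise rose most on Ca8 at 2617801 to 2617900. The level of this window was 36.4% and 37.9% at S3 and 76.9%, 78.1% and 75.5% at S5, on 64 to 162 reads per library. The rise was 32.8 points over 4 forward cytosines and 40.7 points over 6 reverse cytosines. The forward cytosines had only 5 to 8 reads each in the S5 libraries, against 14 to 19 at S3. Every listed cytosine had at least 3 methylated reads, so low levels could not be listed at such depth. The part of this in the forward rise was not tested. The CG and CHG levels of the window overlapped between the stages. The chosen window with the most cytosines lay on Ca4 at 7020901 to 7021000. It held 20 used cytosines, 5 forward and 15 reverse, at 50.3% and 47.9% at S3 and at 70.6%, 76.1% and 76.1% at S5. Its 2 CG cytosines were lower at S5 without overlap and its 2 CHG cytosines higher, all at 82.6% or more in every library.

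No run of adjoining chosen windows was longer than 2 windows, and 68 such pairs were found among the 2300. The pair with the largest mean difference lay on Ca6 at 28890301 to 28890500. The first window of the pair had the largest difference of all chosen windows, 50.2 points, over 4 forward cytosines, with levels of 20.9% and 23.5% at S3 and of 72.7%, 66.7% and 77.8% at S5 on 36 to 88 reads. The second window, with 3 cytosines, rose by 26.4 points, and its S5 libraries were spread from 39.7% to 63.2%.

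**Figure D3:**
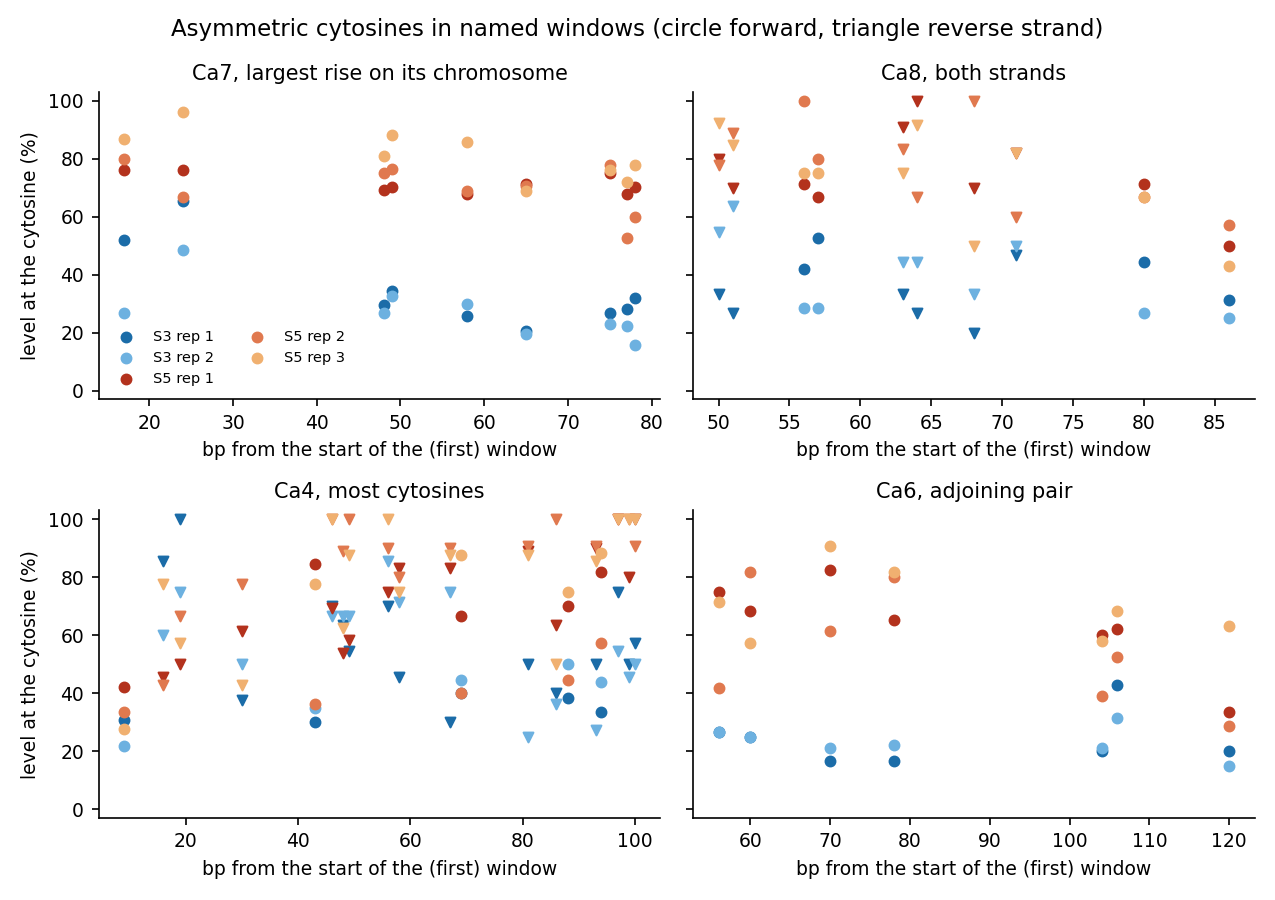
Methylation level (y axis, %) of each used asymmetric cytosine in each library, by its distance from the start of the window (x axis, bp), for named windows on Ca7, Ca8 and Ca4 and for the adjoining pair on Ca6; colours mark libraries, circles the forward and triangles the reverse strand. On Ca7 every cytosine is higher in all S5 libraries than in both S3 libraries, whereas single cytosines of the Ca4 window overlap between stages.

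All used cytosines of a window lay on 1 strand in 1666 chosen windows (72.4%), of which 798 used the forward and 868 the reverse strand. Among all eligible windows the share was 38.3%, and among the 236 windows that fell by the mirrored rule it was 78.0%. Windows used on 1 strand were thus frequent in both directions of change. In the 1666 windows, listed cytosines of the used strand had a mean of 14.9 to 16.6 reads in the libraries, but those of the opposite strand had 7.64 to 10.2 reads. The opposite strand was not empty. It held 14265 asymmetric positions listed in at least 1 library, against 14366 on the used strand, and 59 windows had none. On the opposite strand, 2839 and 3989 asymmetric cytosines were listed in the S3 libraries and 7239, 9958 and 5091 in the S5 libraries, so every S5 library listed more than either S3 library. Their mean levels overlapped between the stages, with 56.7% and 54.9% at S3 and 62.0%, 55.2% and 65.0% at S5. By definition, none of these cytosines was listed in all 5 libraries, which also shapes the numbers. The number listed depends on depth, and so does the level, since a cytosine with few reads is listed only at a high level. Among the S5 libraries the level was lowest in replicate 2, at 10.2 reads, and highest in replicate 3, at 7.64 reads. The S3 libraries had 8.11 and 8.34 reads. The part of depth in these numbers and levels was not tested.

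In 156 chosen windows 3 or more used cytosines lay on each strand. Both strands were higher at S5 in all 156, against 66886 of the 100448 eligible windows of this kind. The median rise in the 156 was 26.7 points on the forward and 26.8 points on the reverse strand. The strand with the smaller rise had a median of 22.2 points, against 2.14 points in the 100448 eligible windows of this kind. Both strands reached 25 points in 36 windows, and the smaller rise was under 10 points in 13 windows. A window with a large rise on both strands meets the rule more easily, so these values describe the chosen windows only.

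The CG and CHG cytosines of the same windows were examined next. In plants these contexts mark transposons and other heterochromatin, and CG methylation alone marks the bodies of many expressed genes. CG cytosines listed in all libraries were present in 1646 chosen windows (71.6%). Their mean level, with each window given the same weight, was 91.1% in each S3 library and 92.0%, 91.5% and 92.3% in S5 replicates 1, 2 and 3. The change of 0.830 points was small beside the asymmetric rise. In 250 of these windows (15.2%) CG was higher at S5 without overlap, against 10.8% of all eligible windows with CG, and in 132 (8.02%) it was lower, against 9.46%.

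CHG cytosines listed in all libraries were present in 1272 chosen windows (55.3%). Their mean level was 79.8% and 79.1% at S3 and 81.9%, 81.0% and 82.5% at S5, with every S5 library above both S3 libraries. With reads pooled over windows, a weighting chosen after seeing the data, the stages overlapped, at 82.1% and 81.1% at S3 and 82.4%, 81.0% and 83.3% at S5, and the change was 0.663 points. In the other eligible windows the CHG level went the other way, from 87.9% and 87.6% at S3 to 85.3%, 84.5% and 86.1% at S5. CHG was higher at S5 without overlap in 225 chosen windows (17.7%), against 5.1% of all eligible windows with CHG, and lower in 123 (9.67%), against 21%. These cytosines lie on the same reads and follow the same stage contrast as the asymmetric ones, so no test was made. A CHG cytosine whose partner was not listed counts as asymmetric, and its part in these values was not tested.

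The CHG level of the chosen windows was below that of the other eligible windows in every library, with differences of -8.11 and -8.50 points at S3 and of -3.33, -3.45 and -3.60 points in S5 replicates 1, 2 and 3. The mean difference was -5.40 points, and it was negative under every setting run, between -8.79 and -2.26 points, the latter without S3 replicate 2. The CG difference was also negative in every library. It was -1.21 and -0.926 points at S3 and -0.0411, -0.232 and -0.195 points in S5 replicates 1, 2 and 3. Its mean was -0.521 points, but it was 3.51 points with reads pooled over the same windows. Where a library was left out, for either context, the windows were chosen anew. The mean CG difference was then 0.179 points without S3 replicate 1 and 0.389 points without S3 replicate 2. The two-sided exact sign-flip permutation test over the 5 libraries cannot give a p under 0.063, which it gave for both contexts. As all libraries share the same windows and reads that chose them, nothing was read from it.

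Asymmetric levels were also taken around the chosen windows, where the rule did not ask for a rise. The adjoining windows, 100 bp away, were eligible in 1493 cases and had a median difference of 12.7 points. Of them, 136 (9.11%) were themselves chosen, against 0.208% of the windows adjoining any eligible window. At 200 bp the median was 8.95 points, at 300 bp it was 7.16 points, and at 1000 bp it was 5.82 points, against 4.67 to 4.75 points for the neighbours of all eligible windows. Bisulphite reads were 100 nt long and paired, so adjoining windows share fragments. In the profile of mean levels, the S3 level dropped from 49.1% at 1 kb upstream to 37.8% in the window, and the S5 level climbed from 53.8% to 66.4%. The dip at S3 and the peak at S5 are both set by the choice in the window itself. Around it, the CHG level was lower at S5 at each distance from 100 to 1000 bp on both sides, with differences between -4.59 and -2.29 points, and among these positions it was higher only in the window.

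**Figure D4:**
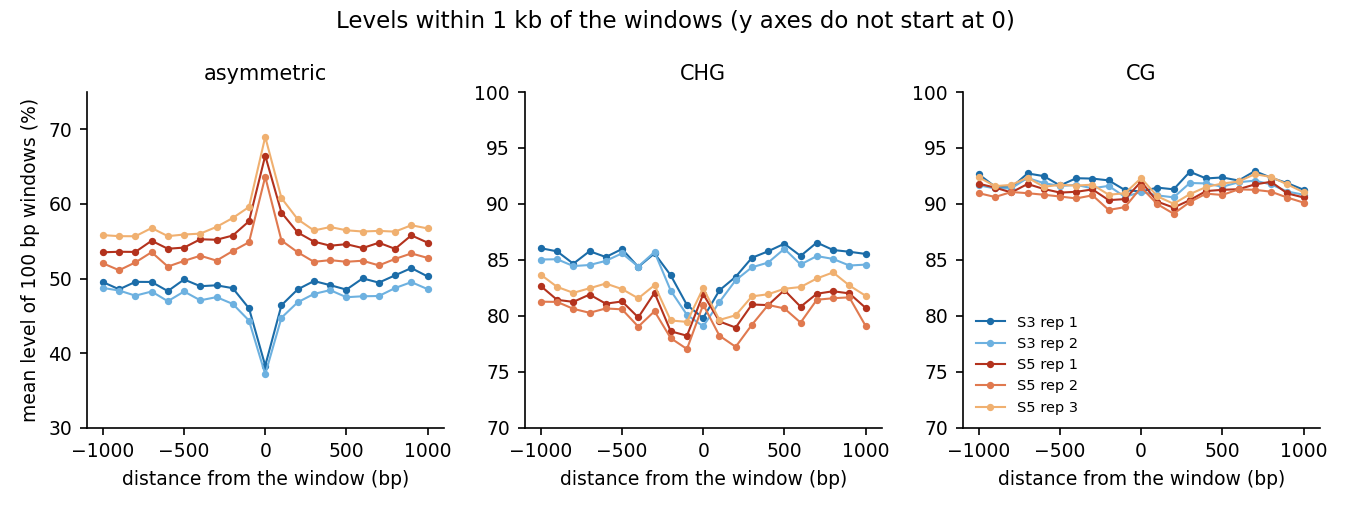
Mean methylation level (y axis, %) of 100 bp windows at distances up to 1 kb from the chosen windows (x axis, bp), over asymmetric, CHG and CG cytosines listed in all libraries; each line is a library and each window has the same weight. The asymmetric lines part at the centre, where they were chosen to, and stay about 5 points apart at 1 kb, whereas for CHG the S5 lines lie above the S3 lines only at the centre and CG lines stay between 89.1% and 92.9%.

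The used strand and the opposite strand were also compared around the 1666 windows used on 1 strand. One window away, the used strand rose by 12.8 points upstream and 13.6 points downstream, over 928 and 893 windows. The opposite strand rose by 7.61 and 8.05 points over 194 and 207 windows, above the general rise of 4.66 points. At 1 kb the rise was 5.04 and 5.83 points on the used strand and 4.52 and 4.44 points on the opposite strand. The strands thus differed near the window and came close to each other and to the general rise farther away. A bisulphite read reports on 1 strand, so only neighbours on the used strand share fragments with the reads that chose the window. The difference between the strands near the window can therefore follow from the choice. The strands were also taken over different sets of windows.

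Listed cytosines near the chosen windows were counted over the union of the libraries. In the windows themselves the median was 18 asymmetric positions against 14 in eligible windows. This union includes positions called at S5 alone, and at S3 the windows held 9.11 listed asymmetric cytosines each, against 9.36. Fewer positions were listed around them in every context. Within 2 kb on either side the median was 242 asymmetric positions against 364, 52 CG positions against 78, and 34 CHG positions against 93. No CHG cytosine was listed within 500 bp of 75 windows (3.26%), against 1.34% of eligible windows. In the window, CG and CHG cytosines were both listed in 1205 cases (52.4%), CG alone in 486 (21.1%), CHG alone in 250 (10.9%) and neither in 359 (15.6%). Among eligible windows these shares were 49.7%, 15.1%, 21.3% and 13.8%. The share of eligible windows chosen was 0.361%, 0.479%, 0.175% and 0.387% in the same classes. Mean asymmetric levels of the chosen windows were alike in these classes, with 36.4% to 39.5% in the S3 libraries and 62.3% to 70.1% in the S5 libraries. These levels chose the windows, so their likeness is largely set by the rule.

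The eligible windows were next divided into 4 groups of similar size by the number of listed CHG cytosines within 2 kb. In the group with 0 to 49 CHG cytosines, 1520 of 166268 windows (0.914%) were chosen. With 50 to 92 it was 0.308%, with 93 to 129 it was 0.0911%, and with 130 to 355 it was 0.0645%. The order was the same on both sides of the median number of reads, from 0.482% to 0.0149% among windows with the median or more, and from 1.53% to 0.11% among windows with fewer. On Ca1 to Ca8 alone it ran from 1.54% to 0.0647%. The general rise did not follow this order. The median difference of all windows was 4.67, 3.87, 4.28 and 5.14 points in the same groups. The differences were instead more spread out where few CHG cytosines were listed, with a 1st percentile of -13.2 and a 99th percentile of 24.7 points against -8.82 and 19.0 points. Falls by the mirrored rule followed the same order, with 157, 57, 20 and 2 windows. The chosen windows and the windows that fell thus shared surroundings with few listed CHG cytosines. Around the chosen windows listed CG and asymmetric positions were fewer as well, and the windows were not divided by these.

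**Figure D5:**
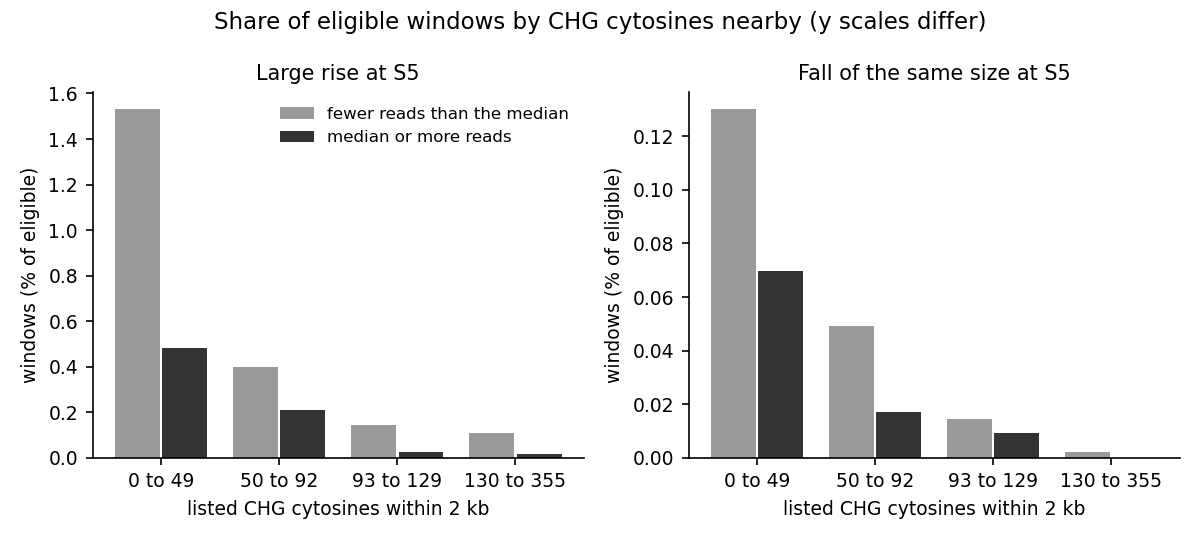
Percent of eligible windows (y axis) with a large rise (left) or a fall of the same size (right) by the number of listed CHG cytosines within 2 kb (x axis), for windows with fewer reads than the median and with the median or more. Both shares decline from the left to the right group, from 1.53% to 0.11% and from 0.482% to 0.0149% for rises.

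Of the chosen windows, 1860 lay on Ca1 to Ca8, 435 on unplaced scaffolds and 5 on short contigs. The share of eligible windows chosen was 0.478% on the 8 chromosomes together and 0.155% on the scaffolds. Ca1 to Ca7 were alike, at 0.437% to 0.49%, and Ca8, the chromosome with the fewest eligible windows (11239), stood at 0.863%. The median difference was 27.2 to 28.2 points on each of the 8 chromosomes. The share changed along the chromosomes. With each chromosome divided into 10 equal parts up to its last listed base, the share on Ca1 was 1.65% in part 1 and 0.16% in part 8. On Ca3 it was 0.194% in part 4 and 1.52% in part 10, and on Ca5 0.128% in part 4 and 1.35% in part 7. On Ca6 it was 1.15% in part 1 and 0.165% in part 7. These parts also differed in listed CHG, with a median of 35 and 102 listed CHG cytosines within 2 kb of the eligible windows in parts 1 and 8 of Ca1, and of 106 and 27 in parts 4 and 10 of Ca3. Not all parts followed this order. On Ca2 the share was 0.951% in part 1, at a median of 89, and 0.549% in part 9, at 72. Many parts held few chosen windows, with 10 in part 4 of Ca5, 12 in part 8 of Ca1 and 14 in part 4 of Ca3. On Ca8 the highest share, 2.37% in part 2, rested on 15 windows.

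Over all asymmetric cytosines called in each library, and not only those called in all, the chosen windows had 19938 and 21950 listed cytosines in the S3 libraries and 29972, 31637 and 27356 in the S5 libraries. This was 9.11 per window at S3 and 12.9 at S5, a ratio of 1.42, against 9.36 and 10.02 (a ratio of 1.07) in all eligible windows. The S5 libraries thus listed more methylcytosines in these windows. A cytosine is listed only when called methylated, so this count is tied to the higher S5 levels that chose the windows. Over these longer lists the mean level of a cytosine went from 41.7% ± 0.562 at S3 (SD, n = 2) to 59.4% ± 2.96 at S5 (SD, n = 3), a smaller step than over the used cytosines. This mean was not weighted by reads and ran over a different list in each library, so the steps are unlike measures.

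The chosen windows were shallower than the average eligible window. The median was 14.7 reads per used cytosine, against 18.5. The share chosen was 0.598% of the windows in the lowest of 4 groups by reads and 0.375%, 0.263% and 0.138% in the next groups. Falls by the mirrored rule declined too, from 0.0545% to 0.0232%. By S3 level, the share was 0.226% under 20%, 0.608% at 20 to 30%, 0.511% at 30 to 40% and 0.024% at 60% or more. The S3 level is part of the difference that chose the windows, so this order was partly set by the rule. The number of used cytosines made little difference, with 0.327% to 0.366% chosen in any class from 3 to 10 or more.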

How the data were processed

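Per the labels and the methods of the study, reads were filtered with NGS QC Toolkit and aligned by the authors to the kabuli chickpea genome (version 1) with Bismark 0.14.3, and uniquely mapped reads were kept. Cytosines with 5 or more reads and a binomial p of 0.0001 or less against the chloroplast error rate were listed as methylcytosines. The deposited tables give a read count (coverage) and the percent of reads showing C at each listed cytosine, for every replicate separately. A cytosine not listed had either too few reads or no call.

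The 5 tables were joined (40605110 positions). CG (8384616) and CHG (6803123) were inferred from listed opposite-strand partners, and 25417371 positions were asymmetric. The 750 positions on more than 1 line were left out. Levels were taken from the deposited counts and percents, weighted by coverage, in Python 3.11.15 with numpy 2.4.6. The libraries listed 24562750 to 27777737 lines, at a median of 12 to 14 reads. Intervals would cover counting error only, and none is given. No genome or annotation of version 1 was used here, so sequences and genes are not shown.

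The windows and the measures were chosen with earlier results of these data known. Named windows were, per chromosome and on scaffolds, the largest difference with 5 or more cytosines and 100 or more reads, and those with the largest smaller-strand rise, the most cytosines, the longest run or the values nearest to the limit. Among several longest runs, the one with the largest mean difference was taken, a choice made after seeing the data. Stages were not tested on the chosen windows. CG and CHG levels over both stages were compared with those of the other eligible windows by an exact sign-flip permutation test over libraries. Alternatives changed the limits, windows, weighting, listing, depth and libraries.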

Additional observations from a re-analysis of the deposited data

How the results depend on the processing

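The number of windows, 2300, ranged from 2635 to 6546 when each library was left out in turn. It was 8665 at a limit of 20 points and 24 at 40 points. It was 1252 with 5 or more cytosines, 784 with 60 or more reads per library, 1378 with 10 or more reads per used cytosine in every library (chosen after seeing the data) and 5 of 182 eligible windows with only those cytosines that can be nothing but CHH, since the next 2 bases are listed cytosines too. Fewer windows were tested in these settings, except at the other limits. The number stayed within a factor of 1.5 for windows starting at base 51 (2273), windows of 200 bp (1538) and plain means (2169). So it did with doubled lines kept (2300) and with windows of high coverage left out (2300). It also did with cytosines listed in fewer libraries (1718) and with reads thinned to the shallowest library (2310). Of the windows in these last settings, 1017 and 1330 were among the 2300, so a similar number did not mean the same windows. The thinning did not repeat the call of methylcytosines.

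The replicate block, with differences within pairs of the same number and without S5 replicate 3, gave 2641 windows. The numbers did not pair the libraries: the differences between replicates 1 and 2 of the stages had a correlation of 0.0221 over eligible windows.

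The share of windows used on 1 strand was 64.8% with 5 or more cytosines. The CG level against the other eligible windows turned from -0.521 to 3.51 points with pooled reads, a weighting chosen after seeing the data. It lay between -0.105 and 0.389 on omitting single libraries (0.179 without S3 replicate 1 and 0.389 without S3 replicate 2). For every omission, here and below, the windows were chosen anew. The change of CG from S3 to S5 in the windows was 3.83 points at a limit of 40 points and 0.716 to 1.09 with each library left out. That of CHG was 8.28 points at a limit of 40 points, 0.663 with pooled reads, where the stages overlapped, and 1.46 to 2.13 with each library left out, always a rise. The cause of these shifts was not tested. Depth limits the precision of single windows, as the shallowest library had a median of 49 reads over the used cytosines.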

Other observations

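The S5 libraries were not ordered alike in all chosen windows. S5 replicate 3 was the highest in 1059 windows, replicate 1 in 741 and replicate 2 in 500. Replicate 2 was the lowest in 1117 windows, replicate 1 in 716 and replicate 3 in 467. Over all eligible windows the mean level had the same order, with 51.3% in replicate 3, 49.7% in replicate 1 and 48.4% in replicate 2. At S3, replicate 1 was the higher library in 1273 windows and replicate 2 in 1027.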
